A study of Mus musculus with 12 samples.

Results

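A set of 10 mouse genes that mark young neurons was followed through neural progenitor cells that had lost lamin B1. The genes encode neuronal RNA-binding proteins (Elavl2, Elavl3, Elavl4 and Rbfox3), proteins of the microtubule cytoskeleton (Dcx, Map2, Mapt and Stmn2) and proteins of the growth cone and axon surface (Gap43 and Cntn2). They were chosen by name, with earlier results of these data known. All 10 were found among the 43309 features measured at day 5 and the 42802 measured at day 9. There were 12 RNA-seq libraries, 3 in each of 4 groups: cKO and WT at day 5, and cKO and WT at day 9. The cKO cells were Lmnb1 fl/fl, with loxP sites around the lamin B1 gene, and the WT cells were Lmnb1 +/+. Cells of both genotypes were C57BL/6 neural progenitors that carried the Ai3 reporter, which gives EYFP after Cre acts. All of them received a lentivirus with Cre under a Sox2 promoter (pSox2-Cre) and grew with 10 ng/ml EGF and 10 ng/ml FGF-2, growth factors that keep progenitors dividing. After 5 or 9 days the EYFP-positive cells were sorted, so the cells measured are those in which the Sox2 promoter drove enough Cre to switch on the reporter. Whether the replicates of a group came from different cultures, animals or lines is not stated, and the p-values therefore cover the spread of these libraries alone, which may be technical.

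ELAVL proteins bind U-rich elements in messenger RNAs and stabilise or splice them, and 3 of the family, Elavl2, Elavl3 and Elavl4, are largely restricted to neurons. Rbfox3 encodes the splicing regulator known as the NeuN antigen. Doublecortin (Dcx) bundles microtubules in migrating neurons, Map2 is the main microtubule-associated protein of dendrites, tau (Mapt) is that of axons, and Stmn2 encodes a stathmin that loosens microtubules in growth cones. Gap43 is a membrane phosphoprotein of growth cones, and contactin 2 (Cntn2, also called TAG-1) is an axonal adhesion molecule of the immunoglobulin superfamily. Several of these genes are not exclusive to neurons: oligodendrocytes also make contactin 2 and tau, and Map2 is found in their precursors.

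Library totals lay between 13315273 and 32127629 counts. Lmnb1, the targeted gene, was at 32.8 to 39.4 CPM (TMM-scaled counts on a common library size) in cKO and 156 to 210 CPM in WT at day 9, and at 37.8 to 45.0 CPM in cKO and 247 to 288 CPM in WT at day 5, as the labels state. At day 9 a small group of 12 structural RNA features took 69.7%, 0.350% and 68.4% of counts in cKO replicates 1, 2 and 3, and between 15.7% and 34.6% in WT. That left 3185022 and 3475553 counts on protein-coding genes in cKO replicates 1 and 3, against 14839099 to 21007382 in the other day 9 libraries. The 12 features include Lars2, a protein-coding gene that was counted with them and not among the protein-coding genes. Lars2 alone took 9.63%, 0.0440% and 10.3% of counts in cKO replicates 1, 2 and 3 at day 9. The 10 progenitor markers, Nes and Sox2 among them, were summed at 4025 to 4741 coding TPM in cKO and 7802 to 9241 in WT at day 9. Not every gene followed the sum. Nes was at 77.1 ± 10.6 CPM in cKO and 302 ± 51.2 CPM in WT, whereas Sox2 was at 261 ± 21.1 CPM in cKO and 248 ± 30.1 CPM in WT (SD). Coding TPM are the deposited TPM values, which account for transcript length, rescaled over protein-coding features. The young neuron label was read against marker genes, which did not all go one way. Stmn2, one of the most abundant messages of young neurons, was almost absent. The vesicular glutamate transporter Slc17a6, a mature neuron marker named after its counts were seen, had 0 counts in all 12 libraries. Others, such as Dcx, Elavl3 and Tubb3, were higher in cKO at day 9 (log2 fold change 2.62, 1.75 and 1.13). The set is therefore named by its genes, and no cell type is assigned to its signal.

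At day 9 most of the set was higher in cKO cells. Of the 9 genes with enough counts to test, 7 rose (Elavl2, Elavl3, Rbfox3, Dcx, Map2, Mapt and Cntn2) and 0 fell, while Elavl4 and Gap43 did not pass (adjusted p under 0.05 by the quasi-likelihood test of edgeR, with Benjamini-Hochberg adjustment). Over all 14617 genes tested at day 9, 21% rose and 22.6% fell. The median log2 fold change of the 9 genes was 1.39, and that of all genes tested was 0.01. For all 7 genes that rose, the cKO libraries lay above every WT library in CPM, which was also so for 27.6% of all genes tested at day 9. In bulk RNA, a change in the number of cells of a type and a change in the RNA per cell cannot be told apart.

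**Figure D1:**
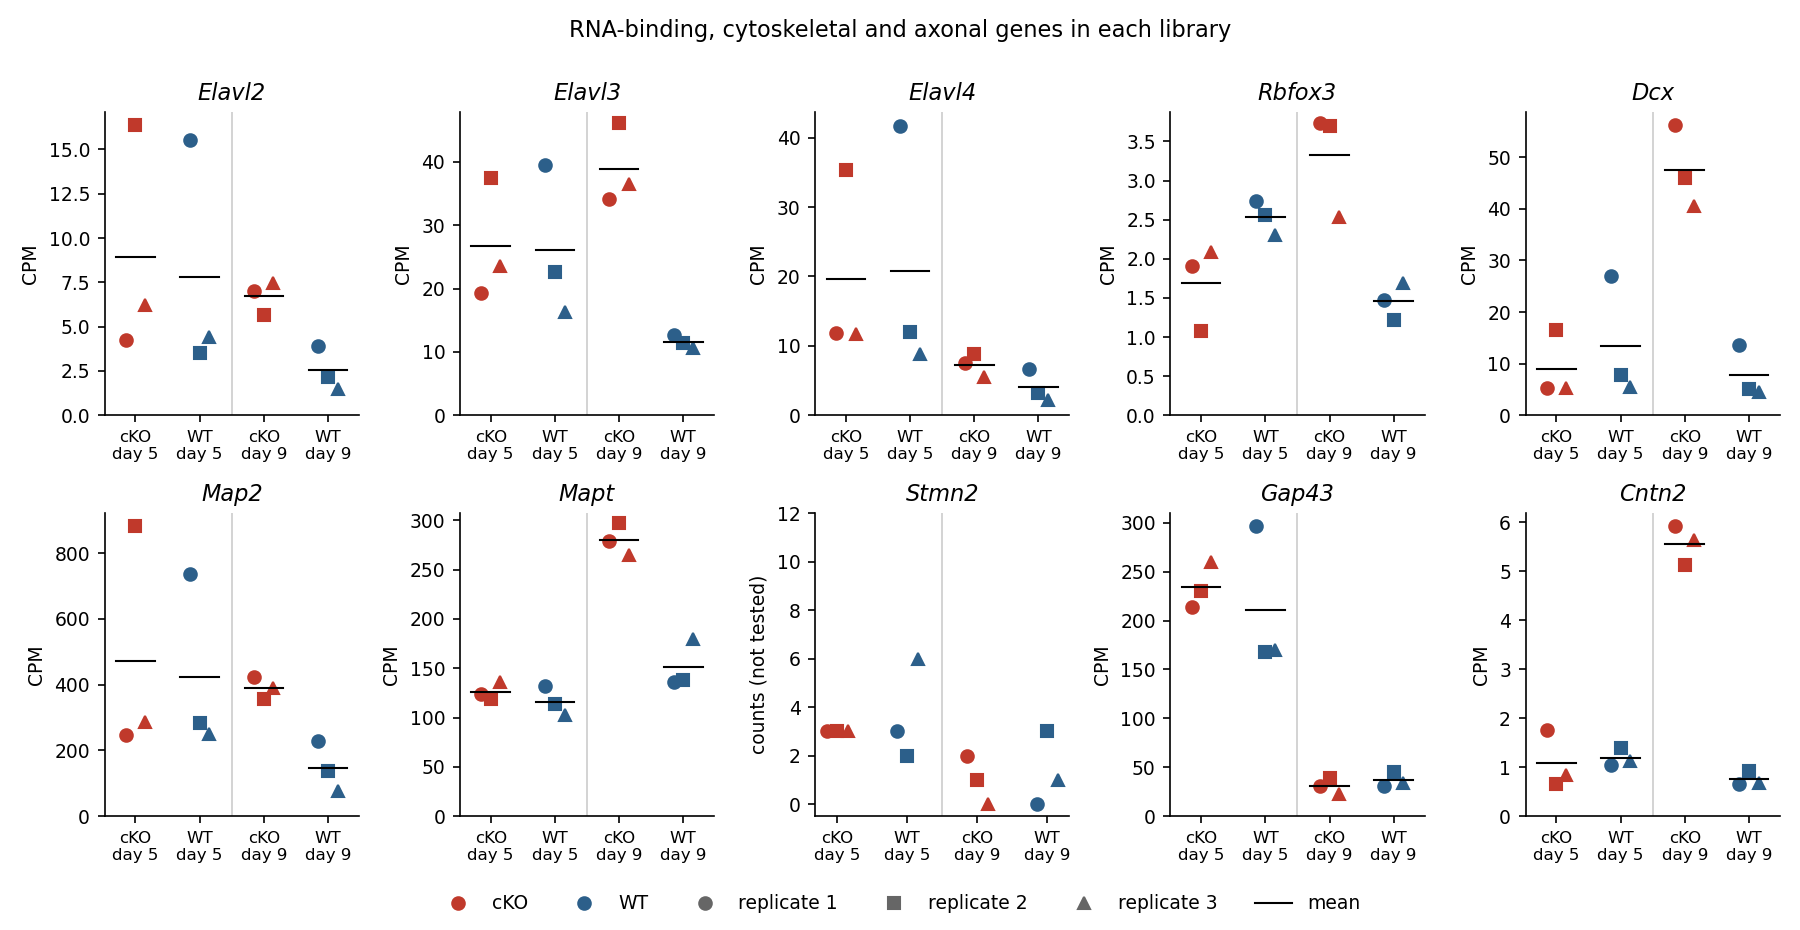
Level of each of the 10 genes in each of the 12 libraries, in CPM on a linear axis that starts at 0 (for Stmn2, in raw counts), with cKO libraries in red left of WT libraries in blue, the symbol giving the replicate and the line the mean of 3. At day 9 the cKO libraries of 7 genes lie above all WT libraries, whereas at day 5 single high libraries of each genotype, cKO replicate 2 and WT replicate 1, stand out for Elavl2, Elavl3, Elavl4, Dcx and Map2.

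Elavl3, whose protein HuC appears as neurons leave the cell cycle, had the smallest adjusted p of the set. It was at 34.1, 46.1 and 36.4 CPM in cKO replicates 1, 2 and 3 at day 9, and at 12.7, 11.4 and 10.7 CPM in the WT libraries. Every cKO library was high and the WT libraries lay close together. Elavl3 rose 3.37-fold (1.75 ± 0.15 SE on the log2 scale, 3 libraries a group; Benjamini-Hochberg adjusted p = 0.000112 by edgeR), higher in 3 of 3 cKO libraries than in any WT library. The gene lies on chr9:22015005-22052023, reverse strand, in mm10, and its first annotated transcript has 7 exons. A same-strand gene model, Gm49318, overlaps it and was not analysed here, so reads that it shares with Elavl3 cannot be told apart from those of Elavl3.

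Elavl2, the HuB gene, was at 7.01, 5.68 and 7.46 CPM in cKO and 3.93, 2.15 and 1.51 CPM in WT at day 9. The lowest cKO library was above the highest WT library, WT replicate 1. Elavl2 rose 2.62-fold (1.39 ± 0.35 SE on the log2 scale; Benjamini-Hochberg adjusted p = 0.0152 by edgeR). Its call ended without cKO replicate 1 (adjusted p = 0.0547), without cKO replicate 3 (0.0528) and without WT replicate 2 (0.0705) in edgeR's test. Over all alternatives run at day 9, the call of Elavl2 ended in 8 of 19.

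Elavl4, the HuD gene, was at 7.48, 8.83 and 5.49 CPM in cKO and 6.64, 3.19 and 2.27 CPM in WT at day 9. WT replicate 1 lay among the cKO libraries, so the groups overlapped. Its log2 fold change was 0.86 ± 0.41 SE and did not pass (edgeR adjusted p = 0.128, Benjamini-Hochberg). Without WT replicate 1 it was 1.41 and passed (adjusted p = 0.0113). On coding TPM the groups did not overlap, at 10.9 to 12.6 in cKO and 3.72 to 8.69 in WT, and limma called it on log2(coding TPM + 1) (0.94, adjusted p = 0.0149).

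Elavl3 and Elavl4 are paralogues of which the first passed at day 9 and the other did not. Whether their changes differ from each other was not tested directly. The 250 bases before the RefSeq start of each hold no annotated exon, so both windows are shown here (RefSeq, GRCm38.p6). Capitals mark E-boxes, the CANNTG motif read by proneural basic helix-loop-helix factors, sought on both strands. The Elavl3 window is chr9:22052024-22052273, and the Elavl4 window, from the first of 4 starts listed, is chr4:110351912-110352161, both on the reverse strand.
Elavl3: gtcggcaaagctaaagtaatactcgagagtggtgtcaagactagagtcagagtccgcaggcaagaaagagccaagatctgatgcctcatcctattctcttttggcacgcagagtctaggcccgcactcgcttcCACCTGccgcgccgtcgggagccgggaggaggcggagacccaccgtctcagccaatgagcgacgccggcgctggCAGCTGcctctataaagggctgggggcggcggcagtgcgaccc
Elavl4: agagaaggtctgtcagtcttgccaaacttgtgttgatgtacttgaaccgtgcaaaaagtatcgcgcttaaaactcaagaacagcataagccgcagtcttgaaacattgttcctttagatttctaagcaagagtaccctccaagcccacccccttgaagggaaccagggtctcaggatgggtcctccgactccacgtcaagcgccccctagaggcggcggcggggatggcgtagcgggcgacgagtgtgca
The Elavl3 window had 2 E-boxes, CACCTG 117 bases and CAGCTG 43 bases before the start, counted to the first letter, and the Elavl4 window had 0. E-boxes are common: 66.05% of the 27025 promoter windows of the same length held a CANNTG, and 12.74% held CAGCTG, which is itself a CANNTG. Of the 7 genes of the set matched in the RefSeq table, Elavl3, Rbfox3 and Cntn2 had an E-box in the window, and Dcx, Elavl2, Elavl4 and Map2 had none. Such matches describe letters in a window and do not show binding.

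The makeup of the neuronal ELAVL group was also compared as the share of each gene in the summed TPM of Elavl2, Elavl3 and Elavl4, a ratio in which the library total cancels. At day 9 Elavl4 held 20.4% ± 2.05 of the sum in cKO and 31.8% ± 4.91 in WT (SD, n = 3 each). Its cKO libraries, at 18.1% to 21.9%, all lay below its WT libraries, at 27.9% to 37.3%. The exact two-sided permutation p was 0.1, the smallest that 3 libraries against 3 can give, so this difference could not pass 0.05. Elavl3 held 54.6% ± 6.11 in cKO and 46.9% ± 9.33 in WT, and Elavl2 held 24.9% ± 7.80 in cKO and 21.3% ± 4.45 in WT, with overlapping groups for both. At day 5 Elavl4 was the largest part in both genotypes, at 54.9% ± 3.54 in cKO and 58.8% ± 3.43 in WT. Days were measured in separate tables, so day and table cannot be told apart and the days are set side by side only.

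Rbfox3, the NeuN gene, was at 3.74, 3.70 and 2.53 CPM in cKO and 1.47, 1.22 and 1.69 CPM in WT at day 9. The groups did not overlap, although cKO replicate 3 lay below the other cKO libraries. Rbfox3 rose 2.29-fold (1.19 ± 0.28 SE on the log2 scale; Benjamini-Hochberg adjusted p = 0.0108 by edgeR). These values rest on 18 to 147 counts per library in cKO and 34 to 58 in WT.

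Of the cytoskeletal genes, Dcx changed most. It was at 56.1, 45.9 and 40.5 CPM in cKO and 13.5, 5.09 and 4.54 CPM in WT at day 9. All cKO libraries were far above WT, in which replicate 1 was 2.98 times replicate 3. Dcx rose 6.14-fold (2.62 ± 0.47 SE on the log2 scale; Benjamini-Hochberg adjusted p = 0.00819 by edgeR). The gene lies on chrX:143855842-143933311, reverse strand, in mm10.

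Mapt, the tau gene, was at 279, 298 and 264 CPM in cKO and 136, 138 and 180 CPM in WT at day 9. Its cKO libraries were tightly grouped above all WT libraries. Mapt rose 1.85-fold (0.89 ± 0.14 SE on the log2 scale; Benjamini-Hochberg adjusted p = 0.00171 by edgeR), with the smallest fold among the genes that rose.

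Map2 was at 423, 357 and 390 CPM in cKO and 228, 136 and 76.5 CPM in WT at day 9. The cKO libraries were alike and the WT libraries were spread 2.98-fold, with no overlap. Map2 rose 2.66-fold (1.41 ± 0.39 SE on the log2 scale; Benjamini-Hochberg adjusted p = 0.0314 by edgeR). The call ended when cKO replicate 1, 2 or 3 or WT replicate 2 was left out (adjusted p = 0.0866, 0.0787, 0.0792 and 0.0994 in edgeR), while the fold change kept its sign. Over all alternatives run at day 9, the call of Map2 ended in 11 of 19.

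Stmn2 was too low to test. At day 9 it had 2, 1 and 0 counts in cKO and 0, 3 and 1 in WT, and at day 5 it had 3, 3 and 3 counts in cKO and 3, 2 and 6 in WT. A count of 0 allows up to 3 counts, or 0.219 CPM of the total in cKO replicate 3 and 0.123 CPM in WT replicate 1 at day 9, for counting error only. A difference between genotypes was thus not detectable at this depth. Its relatives were measured well: Stmn1, which is abundant in dividing cells, was at 52.6 ± 8.12 CPM in cKO and 184 ± 7.60 CPM in WT and fell (-1.80 ± 0.13 SE on the log2 scale; Benjamini-Hochberg adjusted p = 3.89e-05 by edgeR). Stmn3 fell as well (-0.59 ± 0.16 SE, adjusted p = 0.0199), and Stmn4 had -0.03 ± 0.22 SE (0.911).

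Among the growth cone and axon surface genes, Cntn2 had the largest fold of the set and Gap43 none that passed. Cntn2 was at 5.92, 5.13 and 5.63 CPM in cKO and 0.65, 0.93 and 0.67 CPM in WT at day 9. Each genotype was tightly grouped and the groups lay far apart. Cntn2 rose 7.37-fold (2.88 ± 0.26 SE on the log2 scale; Benjamini-Hochberg adjusted p = 0.000118 by edgeR). It is a low-abundance message here, with 38, 204 and 40 counts in cKO and 23, 26 and 23 counts in WT.

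Gap43 was at 30.9, 38.7 and 22.9 CPM in cKO and 30.8, 45.1 and 34.3 CPM in WT at day 9. The groups overlapped, and cKO replicate 3 was the lowest library. Its log2 fold change was -0.24 ± 0.22 SE and did not pass (edgeR adjusted p = 0.384, Benjamini-Hochberg). Gap43 thus had a negative estimate at day 9 where the other 8 tested genes had positive ones.

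**Figure D2:**
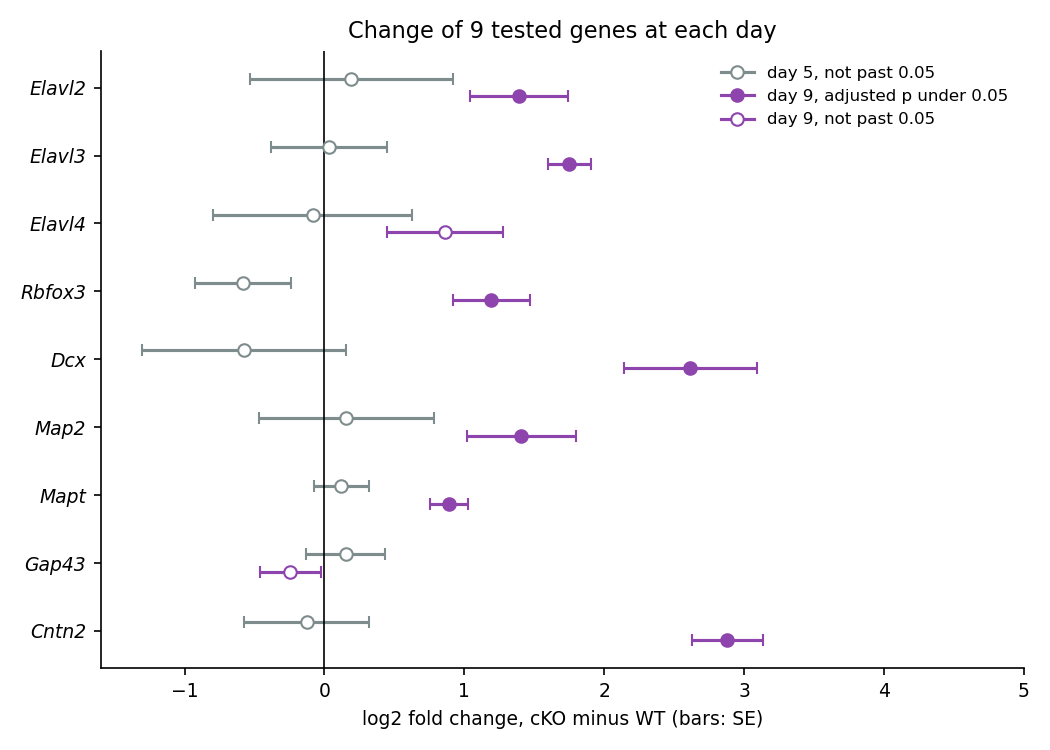
Log2 fold change of cKO over WT for the 9 tested genes at day 5 (grey) and day 9 (purple), with bars for the SE and filled points for an adjusted p under 0.05 in edgeR's quasi-likelihood test. At day 9 the 7 filled points lie between 0.89 (Mapt) and 2.88 (Cntn2), and at day 5 all 9 points are open, between -0.58 and 0.19.

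Every cKO library of day 9 was above the WT mean for 8 of the 9 genes, the exception being Gap43, and so it was for 36.2% of all genes tested. For Elavl3 the log2 ratio to the WT mean was 1.56, 1.99 and 1.65 in cKO replicates 1, 2 and 3, and for Cntn2 it was 2.98, 2.77 and 2.91. It was 1.36, 1.34 and 0.80 for Rbfox3 and 0.89, 1.13 and 0.44 for Elavl4, with replicate 3 lowest in both. With cKO replicates 1 and 3 both left out, so that replicate 2 alone stood for cKO and was assumed to vary like WT, Elavl3, Rbfox3, Mapt and Cntn2 still passed. Dcx, Elavl2 and Map2 then had log2 fold changes of 2.53, 1.13 and 1.25 and did not (edgeR adjusted p = 0.0993, 0.188 and 0.272). On deposited TPM, in which the structural RNA counts toward the total, limma on log2(TPM + 1) called 0 of the 9 genes and 510 of all genes, of which 62 rose and 448 fell. The median of all genes was then -0.79, Mapt turned to -0.13 and Elavl4, not called in either fit, to -0.07. On coding TPM limma called 8, the 7 above and Elavl4, all higher in cKO. Of the 12496 genes in that fit 3855 rose, or 30.8%, and 2010 fell, and their median was 0.16, beside 3070 that rose and 3308 that fell in edgeR's test.

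**Figure D3:**
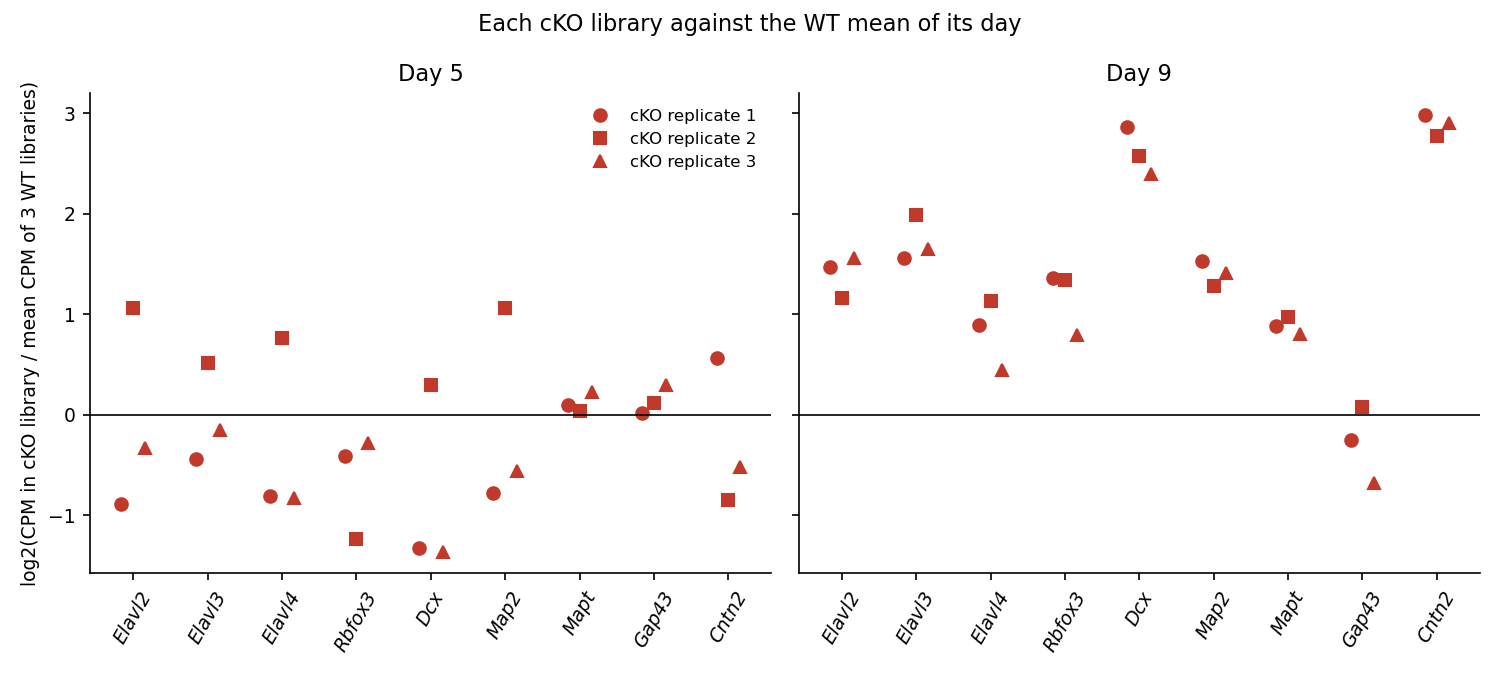
Log2 ratio of each cKO library to the mean CPM of the 3 WT libraries of its day, for the 9 tested genes. At day 9 all cKO libraries lie above 0 for 8 genes, and at day 5 cKO replicate 2 (squares) lies above the other cKO libraries for Elavl2, Elavl3, Elavl4, Dcx and Map2 and below them for Rbfox3 and Cntn2.

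At day 5 none of the 9 tested genes passed, and edgeR called 1 gene of 14849, Lmnb1, or 0.00673%, with 89 genes at an unadjusted p under 0.05. DESeq2 called 9 genes at an adjusted p under 0.05. All 9 had an adjusted p of 0.9999, and 0 of the 9 had an unadjusted p under 0.05. Their median log2 fold change was 0.03, and that of all genes was 0.01. Standard errors for Dcx, Elavl2 and Elavl4 were 0.73, 0.73 and 0.71, so changes of the size seen at day 9 for Elavl2 and Elavl4 lie within 2 of them.

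The day 5 spread was shared between genes. Dcx was at 5.37, 16.5 and 5.24 CPM in cKO and 27.0, 7.88 and 5.51 CPM in WT. Map2 was at 247, 882 and 287 CPM in cKO and 737, 283 and 250 CPM in WT. Elavl4 was at 11.9, 35.4 and 11.7 CPM in cKO and 41.7, 12.04 and 8.78 CPM in WT. In all 3 genes cKO replicate 2 and WT replicate 1 were high, and the groups overlapped. Elavl2 at 4.24, 16.4 and 6.21 CPM in cKO and 15.5, 3.51 and 4.41 CPM in WT, and Elavl3 at 19.2, 37.4 and 23.5 CPM in cKO and 39.6, 22.6 and 16.3 CPM in WT, followed the same pattern. These 2 libraries were the highest of their groups for 5 of the 9 genes, and for 36.94% of all genes tested at day 5. They also had the highest summed progenitor markers, at 8043 coding TPM in cKO replicate 2 and 9451 in WT replicate 1, against 5087 to 6916 in the other 4. The 12 structural RNA features took 14.1% of counts in cKO replicate 2 and 0.0739% to 0.506% in the other 5 libraries of day 5. What part the cell makeup or the structural RNA had in this spread was not tested.

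In the remaining genes cKO replicate 2 was not the highest cKO library of day 5. Mapt was at 124, 119 and 136 CPM in cKO and 132, 114 and 103 CPM in WT, with overlapping groups. Gap43 was at 214, 229.9 and 259.9 CPM in cKO and 296, 168 and 169 CPM in WT, where WT replicate 1 was again high. Cntn2 was at 1.77, 0.66 and 0.83 CPM in cKO and 1.05, 1.39 and 1.14 CPM in WT. For Cntn2, a gene with a large change at day 9, the day 5 groups overlapped and the log2 fold change was -0.13 ± 0.44 SE. Rbfox3 was at 1.91, 1.07 and 2.08 CPM in cKO and 2.74, 2.56 and 2.31 CPM in WT, the one tested gene of the set whose day 5 groups did not overlap. Of all genes tested at day 5, 1.35% had every cKO library below every WT library. Its cKO libraries were the lower ones, with a log2 fold change of -0.58 ± 0.34 SE that did not pass, and on coding TPM the groups overlapped, at 1.15 to 1.69 in cKO and 1.35 to 2.19 in WT.

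The change at day 9 was then set against that at day 5 in 1 fit of all 12 libraries. Of 15323 genes tested, 2.57% had a more positive and 5.14% a more negative change at day 9. Of the 9 genes, 2 passed, both with a more positive change at day 9. Cntn2 differed by 3.01 ± 0.51 SE on the log2 scale (edgeR adjusted p = 0.00398, Benjamini-Hochberg), from its own changes of 2.88 at day 9 and -0.13 at day 5. Rbfox3 differed by 1.78 ± 0.41 SE (adjusted p = 0.0236), with 1.19 at day 9 and -0.58 at day 5. The call of Rbfox3 ended in 12 of 23 alternatives and that of Cntn2 in 2.

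For Elavl3, Mapt and Dcx the difference between days was 1.72 ± 0.48, 0.77 ± 0.22 and 3.19 ± 0.96 SE and missed the threshold (edgeR adjusted p = 0.0540, 0.0542 and 0.0749). Without cKO replicate 2 and WT replicate 1 of day 5, Elavl3 and Dcx passed in edgeR (1.62 and 2.94, adjusted p = 0.00285 and 0.0135), and DESeq2 on all 12 libraries called all 3 genes (adjusted p = 0.00495, 0.00834 and 0.00502) among 1608 in all, against 1181 in edgeR. For Map2, Elavl2, Elavl4 and Gap43 the difference was 1.25, 1.21, 0.94 and -0.39 (adjusted p = 0.464, 0.532, 0.639 and 0.635). A change that passed at day 9 and not at day 5 was thus not shown to differ between the days for Elavl2, Elavl3, Dcx, Map2 and Mapt.

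Levels were compared between genes per length, on coding TPM. In cKO at day 9 the order was Map2 (374 ± 61.3), Mapt (271 ± 26.4), Gap43 (89.7 ± 20.6), Elavl3 (30.9 ± 4.32), Dcx (23.8 ± 4.62), Elavl2 (14.1 ± 4.93), Elavl4 (11.5 ± 0.98), Rbfox3 (5.28 ± 1.57), Cntn2 (3.46 ± 0.75) and Stmn2 (0.22 ± 0.33), as mean ± SD of 3 libraries. The neighbours Elavl3 and Dcx, Elavl2 and Elavl4, and Rbfox3 and Cntn2 overlapped between libraries. In WT at day 9 it was Mapt (123 ± 20.1), Map2 (123 ± 53.9), Gap43 (91.8 ± 21.5), Elavl3 (7.98 ± 0.61), Elavl4 (5.80 ± 2.58), Elavl2 (3.92 ± 1.94), Dcx (3.74 ± 2.15), Rbfox3 (2.11 ± 0.78), Cntn2 (0.41 ± 0.11) and Stmn2 (0.08 ± 0.11). There the first 3 overlapped in turn, as did the 5 from Elavl3 to Rbfox3, while Gap43 and Elavl3, and Rbfox3 and Cntn2, were apart.

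At day 5 the order was the same in both genotypes. Gap43 led at 320 ± 58.2 coding TPM in cKO and 289 ± 142 in WT, followed by Map2 at 261 ± 208 in cKO and 243 ± 185 in WT, which overlapped it. Mapt was at 63.9 ± 5.74 in cKO and 56.4 ± 12.6 in WT, and Elavl4 came before Elavl3, Elavl2, Dcx, Rbfox3, Cntn2 and Stmn2. Among the RNA-binding genes Elavl4 thus had the highest mean at day 5 and Elavl3 at day 9, in both genotypes, although the 2 genes overlapped between libraries except in cKO at day 9. Elavl4 averaged 24.1 coding TPM in cKO and 28.8 in WT at day 5, beside 11.5 in cKO and 5.80 in WT at day 9.

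**Figure D4:**
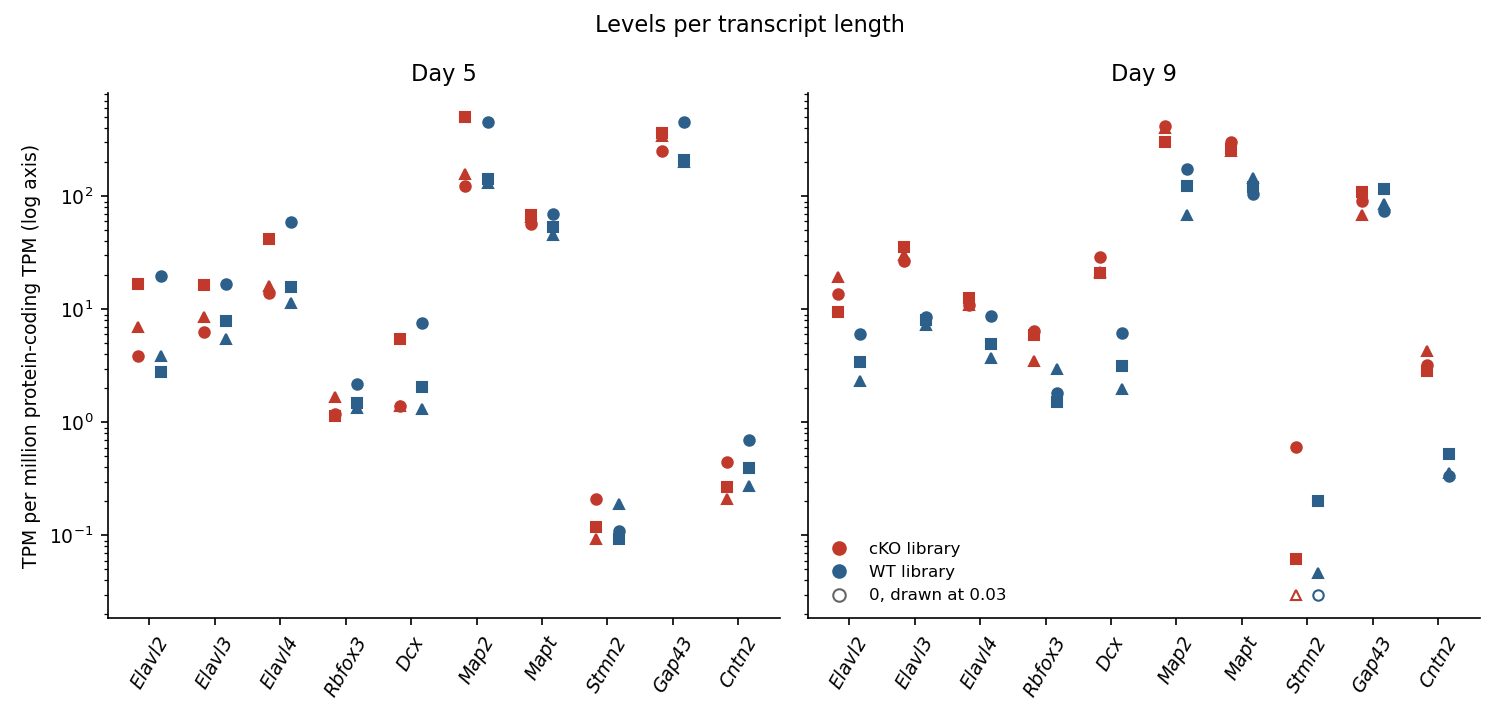
Level per transcript length of the 10 genes at day 5 and day 9, as TPM rescaled over protein-coding features on a log axis, with 1 point per library, cKO in red left of WT in blue, and open points for libraries at 0. Map2, Mapt and Gap43 lie highest at both days, Stmn2 lies below 1 in every library, and the gap between cKO and WT at day 9 is widest for Cntn2 and Dcx.

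Gap43 varied apart from the other genes of the set. Over the 12 libraries, after the mean of each day was removed from log2 CPM, Dcx, Elavl2, Elavl3, Elavl4 and Map2 had pairwise Pearson correlations of 0.78 to 0.97. Rbfox3, Mapt and Cntn2 had 0.76 to 0.84 with each other, and Rbfox3 had 0.22 to 0.30 with Elavl4, Elavl2 and Map2. The 2 sets of genes were not separate: Elavl3 had 0.86 with Mapt and 0.73 with Cntn2, Dcx had 0.73 with Mapt and 0.68 with Cntn2, and Rbfox3 had 0.59 with both Dcx and Elavl3. Gap43 lay between -0.36 and 0.26 with every other gene. These libraries differ in genotype, depth and the length trend given next, and the part of each was not tested. The values therefore describe these 12 points only.

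Transcript length moved with the spread. Across 14184 genes with a length at day 9, the Spearman correlation between exon length and the cKO minus WT change was 0.22. Across 14729 genes at day 5 it was 0.29, and the deviation of a library from its group mean had a correlation with length of 0.41 in cKO replicate 2 and 0.36 in WT replicate 1, and of -0.28 to -0.39 in the other 4. Genes are not independent replicates, so no p is attached. The set is long: Map2 has 16449 exonic bases (98.1 percentile of the genes tested at day 9), Dcx 12647 (95.3) and Cntn2 9304 (88.3), whereas Gap43 has 1523 (10.4). With the trend on length removed in each library, a fit added after the data were seen, Cntn2, Dcx, Elavl3, Rbfox3, Elavl2 and Mapt still passed at day 9, at 2.58, 2.08, 1.60, 1.12, 1.15 and 0.70. Map2 had 0.67 ± 0.29 SE and did not (edgeR adjusted p = 0.108), and Gap43 moved to 0.02.

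The genes whose pattern over the 12 libraries was most like the mean pattern of the 9, among 13502 genes compared, were Ugt8a (r = 0.989), Omg (0.988), Fam13c (0.984), Ppfibp1 (0.984) and Firre (0.972). Ugt8a makes galactocerebroside, a lipid of myelin, Omg is a glycoprotein of oligodendrocytes and neurons, and Firre is a long noncoding RNA. At day 9 Ugt8a was at 26.7 ± 7.11 CPM in cKO and 5.06 ± 1.62 CPM in WT, and Omg was at 63.8 ± 13.8 CPM in cKO and 23.0 ± 4.70 CPM in WT (SD, n = 3 each). These genes were picked on the same 12 libraries with only the day mean removed, so a gap between genotypes was part of the choice. Their day 9 levels are therefore no separate evidence. Within the set the mean pattern was closest to Elavl3 (0.974) and Dcx (0.962) and far from Gap43 (0.091), although the mean contains each of these genes.

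Marker genes of other cell types moved at the same time, beside 21% of all genes tested that rose and 22.6% that fell. At day 9, 10 of 14 tested oligodendrocyte markers rose and 4 fell, with a summed level of 5975 to 6943 coding TPM in cKO and 4058 to 4524 in WT. Of 10 astrocyte markers 8 rose and 0 fell, at 4999 to 6157 coding TPM in cKO and 2768 to 3344 in WT. The division genes went the other way, with 9 of 10 falling, at 228 to 278 coding TPM in cKO and 1086 to 1454 in WT, and 6 of 10 progenitor markers fell while 2 rose. Of 11 tested mature neuron markers 2 rose and 2 fell, and the summed level of all 16 was 338 to 386 coding TPM in cKO and 346 to 399 in WT, so the groups overlapped. In that list 5 of 16, namely Slc17a6, Slc17a7, Slc32a1, Gad2 and Vsnl1, had at most 10 counts in every day 9 library. Nrgn, a postsynaptic calmodulin-binding protein, fell to 0.43 ± 0.14 CPM in cKO, against 4.46 ± 0.38 CPM in WT. Syn1 fell as well (log2 fold change -0.567), whereas Gad1 and Eno2 rose (log2 fold change 0.632 and 0.830). What part the glial, progenitor and division genes had in the change of the 10 genes was not tested.

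Related genes around the set were read from 5 lists, all chosen with results of these data known, none of which had a called gene at day 5. The day 9 counts of each list stand beside 21% of all genes tested that rose and 22.6% that fell. Of 13 tested neuronal RNA-binding genes 5 rose and 1 fell at day 9 (median 0.44, against 0.01 over all genes). Khdrbs2, a STAR-family splicing factor, was at 11.9 ± 2.41 CPM in cKO and 1.33 ± 0.33 CPM in WT, and Srrm4, the activator of neuronal microexons, was at 3.59 ± 0.81 CPM in cKO and 0.72 ± 0.14 CPM in WT. Both rose, as did Nova1 (log2 fold change 0.93 ± 0.13 SE), while Khdrbs3 fell (-0.44 ± 0.10 SE). The nearest relatives Elavl1, the ubiquitous HuR gene, and Rbfox2 had -0.15 and -0.31 and did not pass (edgeR adjusted p = 0.523 and 0.136, Benjamini-Hochberg).

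Of 7 tested progenitor or general RNA-binding genes 2 rose and 2 fell (median 0.01), beside 21% and 22.6% of all genes tested. Ptbp1, which represses neuronal exons in progenitors, was at 73.5 ± 1.57 CPM in cKO and 112 ± 6.11 CPM in WT and fell (log2 fold change -0.61 ± 0.09 SE), and the fetal RNA-binding gene Igf2bp3 fell by 0.65 on the log2 scale. Qk, a glial RNA-binding protein needed for myelin, rose to 632 ± 67.8 CPM in cKO, against 243 ± 112 CPM in WT, and Msi2 rose by 0.92 on the log2 scale.

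Of 30 tested neuronal cytoskeleton genes 12 rose and 2, Stmn1 and Stmn3, fell (median 0.38). Map1b, an early microtubule-associated protein of growing axons, was at 94.6 ± 19.3 CPM in cKO and 8.27 ± 3.65 CPM in WT and rose 11.4-fold (edgeR adjusted p = 0.00169, Benjamini-Hochberg). Tubb3, the neuronal beta-tubulin, was at 58.4 ± 1.67 CPM in cKO and 26.7 ± 5.29 CPM in WT and rose, as did the motor gene Kif5c (log2 fold change 1.69 ± 0.14 SE) and Map1a (0.75 ± 0.13 SE). The doublecortin relatives Dclk1 and Dclk2 had -0.24 and -0.17 and the non-neuronal Map4 had -0.17, and none of the 3 passed.

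Of 19 tested growth cone and axonal adhesion genes 7 rose and 1 fell (median 0.47). Cntnap2, whose protein binds contactin 2 at the juxtaparanode, was at 6.00 ± 3.02 CPM in cKO and 0.43 ± 0.28 CPM in WT and rose (3.75 ± 0.57 SE on the log2 scale; Benjamini-Hochberg adjusted p = 0.00234 by edgeR). Nfasc was at 286 ± 13.5 CPM in cKO and 45.0 ± 6.76 CPM in WT and Ncam1 at 480 ± 24.1 CPM in cKO and 172 ± 11.5 CPM in WT, and both adhesion genes rose, as did Cntn3 (1.55 ± 0.31 SE). Cntn1, another contactin gene, had 0.67 ± 0.33 SE and did not pass (0.140), and Basp1, another membrane protein of growth cones, had -0.09 ± 0.11 SE (0.547).

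Of 14 tested neurogenic transcription factors 7 rose and 2 fell (median 0.55). Insm1 was at 9.02 ± 0.80 CPM in cKO and 3.59 ± 1.13 CPM in WT and rose, whereas Hes6 fell (log2 fold change -0.66 ± 0.12 SE). Nhlh1, a factor of newborn neurons, rose on few reads, with 8, 63 and 11 counts in cKO and 3, 1 and 3 counts in WT.

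**Figure D5:**
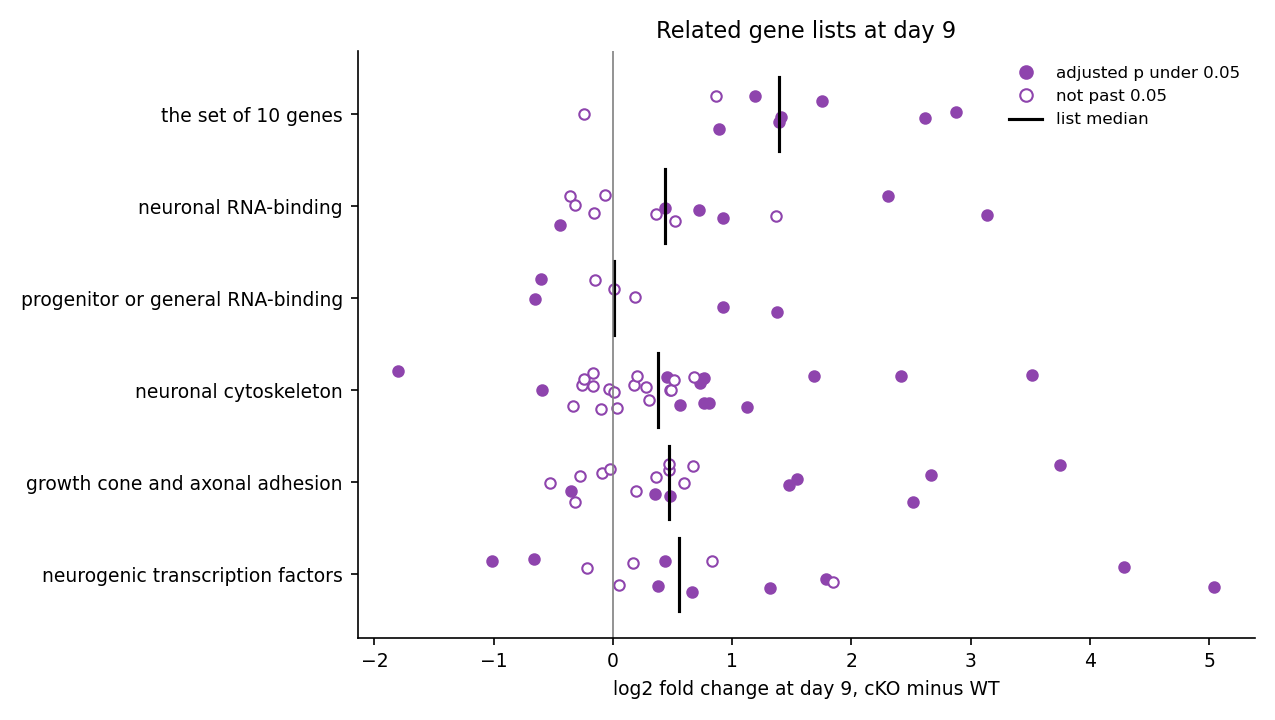
Log2 fold change of cKO over WT at day 9 for every tested gene among the 10 and of 5 related lists, 1 point per gene, filled where the adjusted p was under 0.05, with a vertical bar for the list median. The tested genes of the set have their median at 1.39 and the 5 lists between 0.01 and 0.55, and each list holds genes on both sides of 0.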

How the data were processed

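Polyadenylated RNA was measured in 12 libraries, in 4 groups taken from the sample labels. The authors deposited expected counts and, separately, TPM values per gene, one table of each kind per day; per the submitters' processing notes RSEM, Bowtie2 and mm10 were used. The RSEM version, annotation and strandedness were not given in the sources used here, so overlapping and antisense genes may share reads; those of this set that are in the tables had at most 48 counts in any library, and Gm49318 (at Elavl3) and Gm47310 (at Mapt) were not analysed here. Of the day 5 Ensembl identifiers 42425 had a symbol. The deposited expected counts were rounded, then tested with edgeR 4.0.16 in R 4.3.3 (filterByExpr, TMM, robust quasi-likelihood), each day alone on 6 libraries, and both days together over 41592 shared symbols, with Benjamini-Hochberg adjustment at 0.05 over all genes tested. Standard errors are the log2 fold change divided by the root of F. DESeq2 1.42.0 and limma 3.58.1 on log2(TPM + 1) served as alternatives; fold changes on that scale understate low genes. Gene types, exons and positions came from GENCODE M21 and promoter windows from RefSeq GRCm38.p6. The fits were tested on simulated counts. The members, lists, tests and first alternatives were chosen with earlier results of these data known; coding TPM, the coding-gene fit, the length fit and the day difference without 2 libraries of day 5 were added after these files were seen. Named list genes were, per list, up to 4 with the smallest adjusted p at day 9, plus named relatives of the set (1 gene that this took is not reported here); a few other genes (Slc17a6, Slc17a7, Slc32a1, Gad2, Vsnl1) were named after their counts were seen. No 2 libraries of a group agreed within sampling noise (chi-square per degree of freedom at least 4.91).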

Additional observations from a re-analysis of the deposited data

Results flagged for a closer look

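In 2 genes of the set the genotype effect differed between the days by a test of the difference itself. Cntn2 had a change that was 3.01 higher on the log2 scale at day 9 than at day 5 (SE 0.51, edgeR adjusted p = 0.00398, Benjamini-Hochberg), above WT in 3 of 3 cKO libraries at day 9 and with overlapping groups at day 5. Over its 23 alternatives the adjusted p ran from 1.92e-05 to 0.314. Rbfox3 had a change that was 1.78 higher at day 9 than at day 5 (SE 0.41, edgeR adjusted p = 0.0236), with all cKO libraries above WT at day 9 and all below WT at day 5 in CPM. Its adjusted p ran from 0.00379 to 0.746 over the alternatives, and it passed in 11 of 23.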

How the results depend on the processing

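At day 5, 0 of the 9 genes were called under every alternative run. The number of genes called there, 1 in edgeR, was 9 with DESeq2, 0 with no filter on low counts, 3 with limma on log2(TPM + 1), 3 on log2(TPM + 0.1), 2 with structural RNA left out of TPM, 0 with no filter on TPM, 0 on coding TPM, 0 with the length trend removed, 0 to 0 with 1 library left out and 19 without cKO replicate 2 and WT replicate 1 together. At day 9, 6378 genes were called; TPM gave 510, TPM + 0.1 gave 623, TPM without structural RNA 1424, unfiltered TPM 48, coding TPM 5865 (3855 higher, 2010 lower), leaving out 1 library 4063 to 7507, and leaving out cKO replicates 1 and 3 gave 3344. Of the set, 7 were called; TPM gave 0, TPM + 0.1 gave 0, TPM without structural RNA 1 (Cntn2), unfiltered TPM 0, coding TPM 8, leaving out 1 library 5 to 8, and leaving out cKO replicates 1 and 3 gave 4. On TPM the median of all genes was -0.79 (-1.02 with 0.1), relative to which all 9 genes but Gap43 lay higher; Mapt reversed to -0.13, to -0.14 with 0.1 and to -0.13 unfiltered, and Elavl4, not called, to -0.07, -0.19 and -0.07. The cause was not tested. For the difference between days, 1181 genes were called; DESeq2 gave 1608, upper-quartile scaling 1119, no filter 896, coding genes alone 1233, the length trend removed 1262, TPM 138, TPM without structural RNA 530, leaving out 1 library 756 to 2410, and dropping both high day 5 libraries (cKO replicate 2, WT replicate 1) gave 2535. Of the set, 2 were called; DESeq2 gave 5, upper-quartile scaling 4, no filter 1, TPM 0, TPM without structural RNA 1, coding genes alone 4, the length trend removed 4, leaving out 1 library 1 to 4, and leaving out those 2 day 5 libraries 4.

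Same-numbered libraries did not consistently deviate together (correlations -0.72, -0.50 and 0.53 at day 5, and -0.001, -0.20 and -0.06 at day 9). Of 6 cKO libraries 1 correlated best with the WT library of its own number. The correlations cannot exclude a shared culture or animal, because libraries of a group also differed in length trend and structural RNA share. The main fits used the replicate numbers as sample names only. With the replicate block, 0 genes were called at day 5, 5514 at day 9, with 8 of the set as Elavl4 was added, and 322 for the difference between days, with 0 of the set. Stmn2 had at most 6 counts in any library, and the 18 to 40 counts of Rbfox3 and Cntn2 in cKO replicates 1 and 3 of day 9 limit their precision. Elavl2 and Elavl4 are limited as well, with as few as 45 and 39 counts in a cKO library of day 9. Their shares of the ELAVL sum rest on the same counts.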
